A study of Mus musculus with 12 samples.

Results

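The 10 genes described here, Glul, Slc1a2, Oat, Rhbg, Lgr5, Axin2, Tbx3, Rnf43, Znrf3 and Lect2, are targets of Wnt/beta-catenin signalling in the hepatocytes next to the central vein. They were taken by name from a table of 36528 mouse gene IDs, and all 10 were among the 16032 genes with enough reads to be tested. RNA was sequenced from whole liver of mice injected intraperitoneally with carbon tetrachloride (CCl4; 6 livers) or with corn oil (6 livers), 3 times per week for 6 weeks. CCl4 is a solvent that cytochrome P450 turns into a toxic radical, above all in pericentral hepatocytes, and repeated doses scar the liver. Genotype, strain, sex and age are not stated in the labels. Libraries held 53602695 to 69203292 counts in CCl4 livers and 43027778 to 70375852 counts in oil livers. Values are CPM, each gene's counts in proportion to the TMM-scaled library total, and the comparison asks how far the transcripts of the Wnt zone differed between chronically injured and oil-injected livers.

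Wnt proteins and R-spondin made by endothelial cells of the central vein stabilise beta-catenin in the adjoining hepatocytes, where it acts with TCF/LEF factors on DNA. The resulting gene program gives these cells their metabolic role, the capture of remaining ammonia as glutamine. It also includes components of the pathway itself: a receptor that raises the response (Lgr5) and inhibitors that limit it (Axin2, Rnf43 and Znrf3). In whole liver RNA, fewer cells of a type and less RNA per cell cannot be told apart.

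Promoter windows of the RefSeq annotation (GRCm38.p6) were at hand for 6 of the 10 genes, as 7 windows, of which the 250 bases before the start were searched for the TCF/LEF letters CTTTGAT or CTTTGAA on both strands. The 2 words differ only in their last letter, so that they cannot both match at the same place on a strand. Slc1a2 and Lect2 had a match, ATCAAAG on the printed strand, and the windows of Glul, Oat, Axin2 and Rnf43 had none. Of all 27018 genes with such a window, 8.63% had a match. The windows of Slc1a2 and Lect2 are shown because these genes stood at the opposite ends of the response to CCl4. The match is in capitals, beginning 207 bases before the start in Slc1a2 and 32 bases before it in Lect2. The Slc1a2 window, on the plus strand at chr2:102706188-102706437, lies inside the annotated span of the gene, at a start other than its outermost. The Lect2 window, on the minus strand, is chr13:56548539-56548788.
Slc1a2: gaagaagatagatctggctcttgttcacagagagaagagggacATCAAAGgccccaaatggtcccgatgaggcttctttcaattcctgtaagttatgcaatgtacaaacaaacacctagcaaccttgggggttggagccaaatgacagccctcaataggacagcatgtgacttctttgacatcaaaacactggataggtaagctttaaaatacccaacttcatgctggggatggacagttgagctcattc
Lect2: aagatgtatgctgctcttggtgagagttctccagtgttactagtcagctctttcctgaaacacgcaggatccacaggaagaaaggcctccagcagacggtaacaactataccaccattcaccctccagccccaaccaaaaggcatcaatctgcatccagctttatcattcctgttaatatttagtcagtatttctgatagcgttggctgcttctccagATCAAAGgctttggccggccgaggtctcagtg

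Of the 10 genes 9 fell in CCl4 livers and 1, Lect2, rose, at an adjusted p of 0.05 in edgeR's quasi-likelihood test over all genes. Of all tested genes 39.0% passed this test, 18.4% as lower and 20.6% as higher. The falls differed widely in size. The genes of glutamine and ammonia handling fell 6.20-fold to 380-fold, Tbx3 fell 3.49-fold, and the receptor and inhibitors of the pathway fell 1.59-fold to 2.35-fold. The median log2 fold change of the 10 genes was -1.52, against 0.01 over all tested genes. For Glul, Slc1a2, Oat, Rhbg and Lgr5 all 6 CCl4 livers lay below all 6 oil livers, an arrangement shown by 8.03% of all tested genes. For Lect2 they lay above, which makes 6 of 10 genes with groups apart in either direction, against 20.0% of all tested genes. For Axin2, Tbx3, Rnf43 and Znrf3 the groups overlapped.

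**Figure D1:**
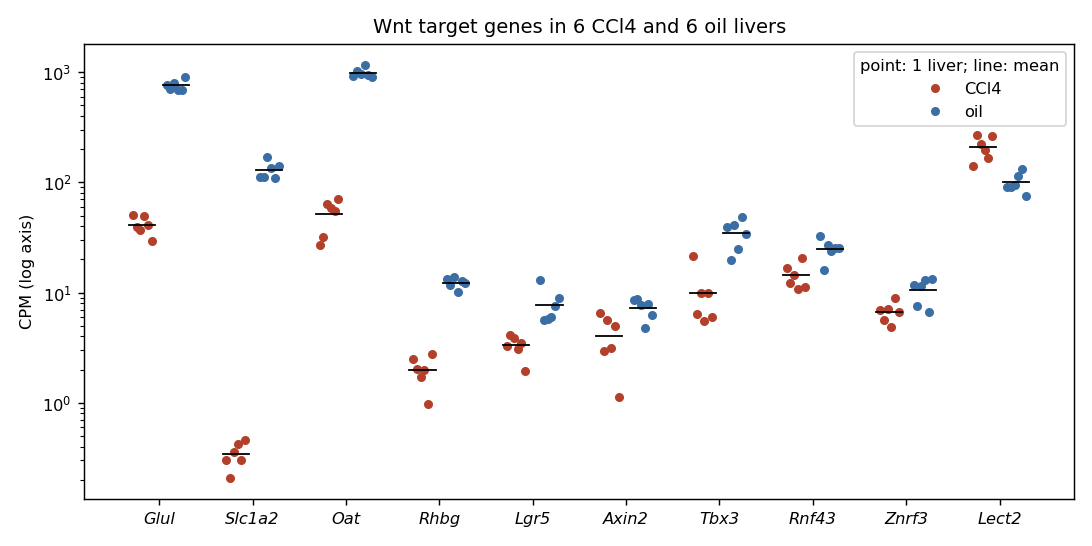
CPM of the 10 genes on a log axis, with 1 point per liver and a line at the mean of each group (6 CCl4 and 6 oil livers). Slc1a2 lies between 0.207 and 0.458 CPM in CCl4 livers and between 110.6 and 168.3 CPM in oil livers, whereas the groups of Axin2, Tbx3, Rnf43 and Znrf3 overlap.

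The genes that handle glutamine, glutamate and ammonia fell furthest. Glul, glutamine synthetase (gene ID 14645, chromosome 1, 153899929 to 153909723), ranged from 29.7 over a median of 40.4 to 50.5 CPM in CCl4 livers, and from 688.6 over 735.2 to 909.5 CPM in oil livers. The highest CCl4 liver was thus far below the lowest oil liver, and the change was 18.4-fold (log2 fold change -4.20 ± 0.16 SE, edgeR adjusted p = 1.52e-09). Only Slc1a2 had a smaller p-value among all genes in this fit. Mir8114, a microRNA gene that overlaps the start of Glul on the same strand and may share its reads, had 0.222 CPM in CCl4 livers and 5.29 CPM in oil livers.

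Slc1a2, the glutamate transporter GLT-1 (gene ID 20511, chromosome 2, 102658239 to 102790784), ranged from 0.207 over 0.332 to 0.458 CPM in CCl4 livers, and from 110.6 over 124.4 to 168.3 CPM in oil livers. It came close to loss of detection after CCl4, with 14 to 30 reads per library, against 4253 to 9109 reads in oil libraries. The log2 fold change was -8.57 (95% interval -9.05 to -8.08, edgeR adjusted p = 2.11e-11), and 3 of the 16032 tested genes had a lower one. Relative to Glul in the same library, the level of Slc1a2 was a further 18.8-fold lower in CCl4 than in oil livers (exact two-sided permutation of 6 against 6 livers, p = 0.00216, the smallest this design allows; 0.00271 after Benjamini-Hochberg adjustment over 10 ratios).

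Oat, ornithine aminotransferase, which turns ornithine into the precursor of glutamate (gene ID 18242, chromosome 7, 132557475 to 132576398), ranged from 27.1 over 56.7 to 70.4 CPM in CCl4 livers, and from 908.8 over 951.5 to 1170 CPM in oil livers. The groups were far apart, and the change of 19.3-fold (edgeR adjusted p = 6.09e-08) was close to that of Glul. The log2 ratio of Oat to Glul averaged 0.25 ± 0.76 in CCl4 livers and 0.38 ± 0.26 in oil livers (SD, n = 6 each; exact permutation p = 0.706). Among CCl4 livers the 2 genes did not run in parallel: replicates 1 and 2 had the lowest Oat, with 27.1 and 32.3 CPM, whereas replicate 1 had the highest Glul, and replicate 6 had the highest Oat and the lowest Glul.

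Rhbg, an ammonium transporter of the Rh family (gene ID 58176, chromosome 3, 88242874 to 88254739), ranged from 0.967 over 2.01 to 2.76 CPM in CCl4 livers, and from 10.16 over 12.54 to 13.89 CPM in oil livers. No liver of a group reached the other group, and the change was 6.20-fold (log2 fold change -2.63 ± 0.21 SE, edgeR adjusted p = 8.99e-07). Rhbg fell less than Glul, since its ratio to Glul was 2.92-fold higher in CCl4 livers (exact permutation p = 0.00216). The lowest value came from CCl4 replicate 5.

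The 4 pathway components fell less than the metabolic genes. Lgr5, the R-spondin receptor (gene ID 14160, chromosome 10, 115450314 to 115587780), ranged from 1.94 over 3.41 to 4.12 CPM in CCl4 livers, and from 5.61 over 6.74 to 13.01 CPM in oil livers. The groups stood apart by a narrow margin, with a change of 2.35-fold (log2 fold change -1.23 ± 0.24 SE, edgeR adjusted p = 0.000963). Oil replicate 1 had the highest value, and without it the log2 fold change was -1.06.

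Axin2, a scaffold of the complex that degrades beta-catenin and a feedback gene of the pathway in many tissues (gene ID 12006, chromosome 11, 108917828 to 108950783), ranged from 1.13 over 4.05 to 6.52 CPM in CCl4 livers, and from 4.77 over 7.77 to 8.78 CPM in oil livers. The groups overlapped: 3 of 6 CCl4 livers lay above the lowest oil liver. The change of 1.80-fold was at the edge of the threshold (log2 fold change -0.85, 95% interval -1.54 to -0.16, edgeR adjusted p = 0.0498), and it did not pass in 7 of the 12 repeats that left out 1 library each: CCl4 replicate 2 or 4, or any oil replicate except number 4 (adjusted p = 0.0612 to 0.101).

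Rnf43 and Znrf3 encode membrane ubiquitin ligases that remove Frizzled receptors from the cell surface and so damp the Wnt response. Rnf43 (gene ID 207742, chromosome 11, 87663087 to 87735539) ranged from 10.9 over 13.4 to 20.4 CPM in CCl4 livers, and from 16.1 over 25.5 to 32.7 CPM in oil livers. Znrf3 (gene ID 407821, chromosome 11, 5276329 to 5444847) ranged from 4.92 over 6.76 to 8.88 CPM in CCl4 livers, and from 6.66 over 11.6 to 13.3 CPM in oil livers. In both genes the groups overlapped, with 2 CCl4 livers of Rnf43 and 3 of Znrf3 above the lowest oil liver. Rnf43 fell 1.75-fold (edgeR adjusted p = 0.00411) and Znrf3 fell 1.59-fold (edgeR adjusted p = 0.0156). Their ratio to each other was 1.13-fold lower in CCl4 livers, within the spread between livers (exact permutation p = 0.396, 0.440 adjusted over 10 ratios).

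Each of these 4 genes fell less than Glul. Their ratios to Glul within a library were higher in CCl4 livers by 8.12-fold for Lgr5, 9.21-fold for Axin2, 10.6-fold for Rnf43 and 11.9-fold for Znrf3. In all of them the ratios of the 6 CCl4 livers lay above those of the 6 oil livers (exact permutation p = 0.00216 each, the smallest possible, and 0.00271 adjusted over 10 ratios). Scaling of the libraries cancels in such ratios, apart from the small prior count.

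Tbx3, a T-box transcription factor (gene ID 21386, chromosome 5, 119670534 to 119684724), ranged from 5.58 over 8.22 to 21.3 CPM in CCl4 livers, and from 19.9 over 36.6 to 48.6 CPM in oil livers. CCl4 replicate 1 alone reached into the oil range, and the other 5 CCl4 livers lay below all oil livers. Tbx3 fell 3.49-fold (log2 fold change -1.80 ± 0.33 SE, edgeR adjusted p = 0.000685), and without CCl4 replicate 1 the log2 fold change was -2.20. Its ratio to Glul was 4.96-fold higher in CCl4 livers (exact permutation p = 0.00216).

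Lect2 went against the other 9 genes. It encodes leukocyte cell-derived chemotaxin 2, a protein that hepatocytes secrete into blood and that is known as a beta-catenin target in mouse liver (gene ID 16841, chromosome 13, 56529734 to 56548559). It ranged from 141 over 210 to 268 CPM in CCl4 livers, and from 75.1 over 93.6 to 131.8 CPM in oil livers. The lowest CCl4 liver was above the highest oil liver, and Lect2 rose 2.10-fold (log2 fold change 1.07 ± 0.18 SE, edgeR adjusted p = 0.000387). Its ratio to Glul was 38.7-fold higher in CCl4 livers (exact permutation p = 0.00216), the widest divergence among the 10 ratios of this family. Because all CCl4 livers lay above the oil livers in Lect2 and below them in Glul, this ratio had to separate the groups. Its p-value therefore adds nothing to the results of each gene.

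**Figure D2:**
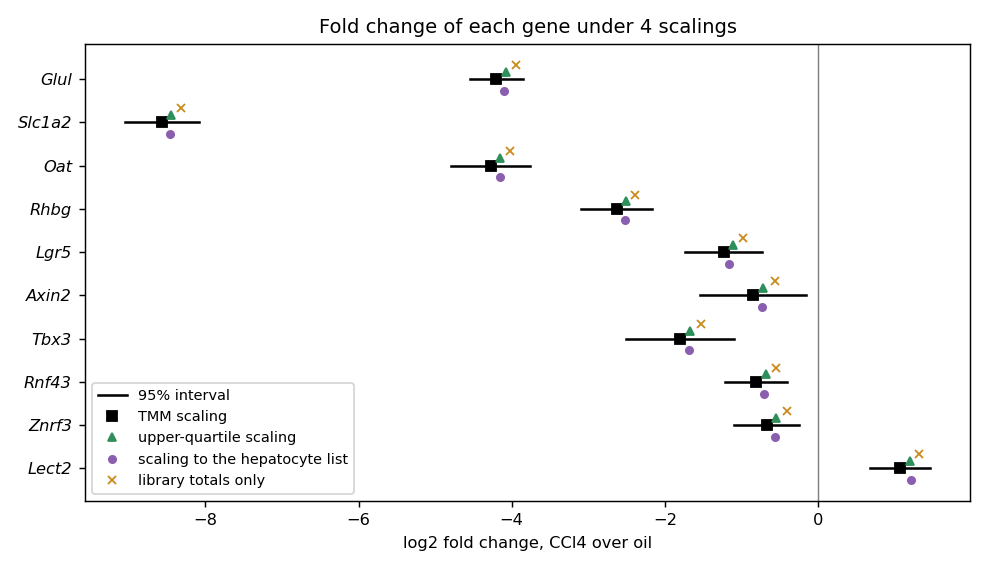
Log2 fold change of CCl4 over oil for each gene, as squares with 95% intervals under TMM scaling, and as triangles, circles and crosses under upper-quartile scaling, scaling to a hepatocyte gene list and library totals only. With TMM the values run from -8.57 in Slc1a2 to 1.07 in Lect2, and the crosses of Axin2, Rnf43 and Znrf3 at -0.57, -0.55 and -0.41 are the values with library totals only.

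The size of the smaller changes depended on how libraries were scaled. Scaling factors by TMM were 0.992 to 1.21 in CCl4 libraries and 0.883 to 0.985 in oil libraries. With library totals only, the median of all genes moved to 0.27 on the log2 scale. There Axin2 (adjusted p = 0.205), Rnf43 (adjusted p = 0.0557) and Znrf3 (adjusted p = 0.146) did not pass in edgeR. Relative to that median their log2 fold changes were -0.83, -0.82 and -0.68. Of all calls 47.2% were falls with TMM, 32.7% with upper-quartile scaling, 31.2% with scaling to the hepatocyte list and 19.2% with library totals only. The 7 genes Glul, Slc1a2, Oat, Rhbg, Lgr5, Tbx3 and Lect2 passed under all 23 alternatives run.

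The levels were also set against genes that all hepatocytes express, such as albumin, transthyretin and apolipoproteins, in the same library. Of 13 tested genes of this list 4 fell, 2 rose and 7 did not pass, where 18.4% of all tested genes fell and 20.6% rose. The median log2 fold change of the list was -0.27. Its summed level was 133237 to 183272 CPM in CCl4 livers and 120209 to 169793 CPM in oil livers. The median was -0.11 without oil replicate 5, 0.00 with library totals only and -0.03 with limma-voom, and the rises numbered 1 when CCl4 replicate 6 or oil replicate 1, 3, 4 or 6 was left out. Single genes of the list moved in both directions. With TMM and all libraries, the falls included Hnf4a, Apob and Apoa2, with log2 fold changes of -1.05, -0.69 and -0.65. The 2 rises were Ahsg and Hpx, with log2 fold changes of 0.59 and 0.95. Alb, named here after its values were seen, did not pass (edgeR adjusted p = 0.939). It had 77063 ± 15611 CPM in CCl4 livers and 78023 ± 14783 CPM in oil livers (SD, n = 6 each). Relative to the mean log2 CPM of the list, Glul was 17.1-fold, Slc1a2 322-fold, Oat 18.8-fold, Rhbg 5.86-fold and Lgr5 2.11-fold lower in CCl4 livers, and Lect2 was 2.26-fold higher. In these 6 genes the groups stood apart (exact permutation p = 0.00216 each, 0.00361 adjusted over 10 ratios). The share of all genes with groups apart on this measure was not computed. Tbx3 was 3.45-fold lower (exact permutation p = 0.00433, adjusted 0.00618) and Rnf43 1.62-fold lower (exact permutation p = 0.0238, adjusted 0.0298). Rnf43 did not pass when any of CCl4 replicates 2, 4 and 6 or oil replicate 1 was left out (adjusted p = 0.0595). Axin2 was 1.86-fold lower (exact permutation p = 0.0519, adjusted 0.0577) and Znrf3 1.44-fold lower (exact permutation p = 0.0866, adjusted 0.0866), neither past the threshold. Axin2 passed when CCl4 replicate 1, CCl4 replicate 3 or oil replicate 4 was left out, and Znrf3 when oil replicate 5 was (adjusted p = 0.0271 to 0.0457).

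**Figure D3:**
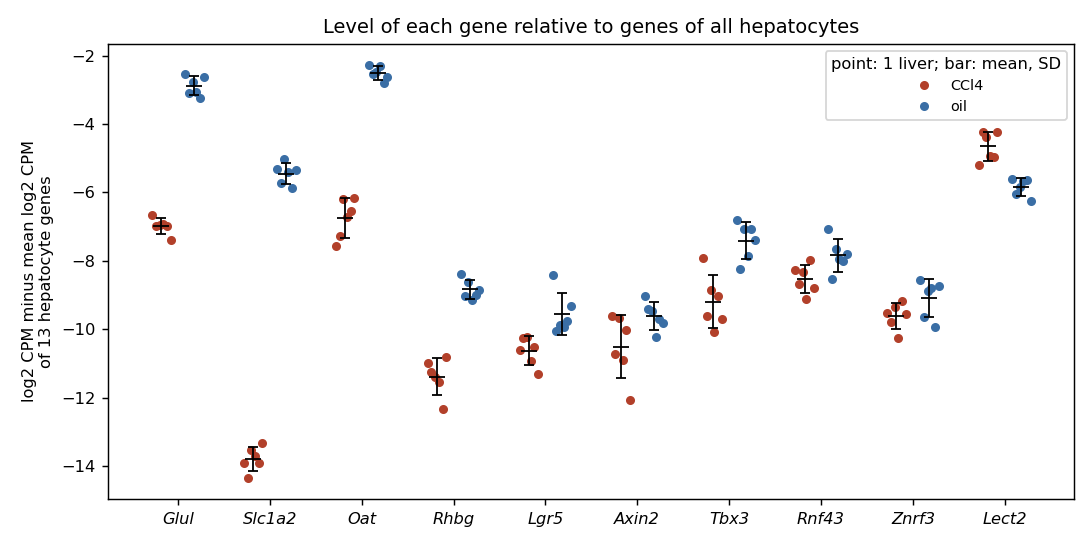
Log2 CPM of each gene minus the mean log2 CPM of 13 hepatocyte genes in the same library, with 1 point per liver and bars for mean and SD (6 CCl4 and 6 oil livers). Glul, Slc1a2, Oat, Rhbg and Lgr5 stand apart downwards and Lect2 upwards, while the points of Axin2, Tbx3, Rnf43 and Znrf3 overlap.

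Divided by the length of the longest annotated transcript, CPM per kilobase can be compared between genes, within the limits of knowing which transcript is used. In CCl4 livers Lect2 led with 251 ± 62.0 CPM per kilobase (SD, n = 6), followed by Oat with 23.8 ± 8.13 and Glul with 14.8 ± 2.84, whose ranges overlapped. Rnf43, Tbx3, Znrf3, Rhbg, Axin2 and Lgr5 followed with mean levels of 3.32 to 0.691 CPM per kilobase, each overlapping its neighbour in the order, and Slc1a2 was last with 0.0295 ± 0.00788. In oil livers Oat led with 460 ± 46.3 CPM per kilobase, followed by Glul with 273 ± 30.6, Lect2 with 119 ± 24.1 and Slc1a2 with 11.2 ± 1.98, and the ranges of Oat, Glul, Lect2 and Slc1a2 did not overlap each other. Tbx3, Rhbg and Rnf43 at 6.94 to 5.82 CPM per kilobase overlapped in turn, Tbx3 also with Slc1a2, and Axin2, Znrf3 and Lgr5 at 1.72 to 1.63 were not separated. Slc1a2 was thus number 10 in the order of CCl4 livers and number 4 in that of oil livers, and Lect2 was number 1 in CCl4 livers and number 3 in oil livers.

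The spread between livers differed by gene. Tbx3 and Axin2 varied most among CCl4 livers, with coefficients of variation of 60.0% and 49.2%, against 30.8% and 21.0% among oil livers. Glul varied by 19.2% and 11.2%, and Oat by 34.2% and 10.1%, in CCl4 and oil livers. CCl4 replicate 1 had the highest Tbx3, Axin2 and Glul of its group, but also the lowest Oat and Lect2. CCl4 replicate 6 had the lowest Axin2, Lgr5 and Glul, but also the highest Slc1a2, Oat and Rhbg. CCl4 replicates 1 and 3 held transcripts of skeletal muscle, with 371 and 65.7 CPM summed over 10 muscle genes, against 0.875 to 2.02 CPM in the other 10 libraries. With both left out 9 genes fell and 1 rose, as with all libraries, and the log2 fold changes of Axin2, Tbx3 and Lect2 were -1.26, -2.30 and 1.17. Of all tested genes 18.7% then fell and 20.3% rose.

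The libraries also differed in how reads were spread over short and long transcripts. The slope of log2 CPM on log2 transcript length was -0.32 to 0.22 in CCl4 libraries and -0.10 to 0.30 in oil libraries. CCl4 replicate 6, which had the lowest Axin2, also had the lowest slope. With this slope as a covariate in edgeR, the log2 fold changes of Axin2 and Znrf3 were -0.59 (adjusted p = 0.107) and -0.40 (adjusted p = 0.0691), and neither passed. Lect2, the gene with the shortest transcript among the 10, was at 0.77 in that fit (adjusted p = 7.35e-05), and Slc1a2, the gene with the longest, at -8.52.

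Some of the 10 genes overlap other annotated genes, and whether reads were counted by strand is not known here. Tbx3os1, antisense to the start of Tbx3, had 0.116 CPM in CCl4 livers and 0.613 CPM in oil livers. 1110028F11Rik, inside an intron of Rnf43 on the same strand, went the other way from Rnf43, with 5.15 CPM in CCl4 livers and 1.92 CPM in oil livers (edgeR adjusted p = 0.000416). The annotated span of Fgfr2 covers Oat, and Fgfr2 had 30.8 CPM in CCl4 livers and 39.4 CPM in oil livers (edgeR adjusted p = 0.0850). Genes on the opposite strand of Slc1a2 and Lgr5, Gm13872 and A930009A15Rik, averaged under 0.1 CPM in both groups.

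Of 23 receptors and intracellular steps of canonical Wnt signalling 6 fell, 1 rose and 16 did not pass, with a median log2 fold change of -0.39. Over all tested genes 18.4% fell and 20.6% rose, so that the calls in this list, 7 of 23, were no more frequent than the 39.0% of all genes. Among the falls were Lgr4, a further R-spondin receptor, at 44.9 ± 4.58 CPM in CCl4 livers and 63.7 ± 6.62 CPM in oil livers (edgeR adjusted p = 0.00257), and Dvl1, a Dishevelled relay protein, at 60.1 ± 4.16 and 81.7 ± 5.60 CPM in CCl4 and oil livers (edgeR adjusted p = 0.00241). The Frizzled receptor Fzd8 fell 1.82-fold and Fzd1 rose 1.44-fold. Bcl9l, a co-activator of beta-catenin named here after its values were seen, fell 2.45-fold, at 13.3 ± 8.90 CPM in CCl4 livers and 32.7 ± 8.78 CPM in oil livers with overlapping groups (edgeR adjusted p = 0.0183). Ctnnb1, beta-catenin itself, had 189 ± 51.2 CPM in CCl4 livers and 213 ± 20.5 CPM in oil livers (SD, n = 6 each; edgeR adjusted p = 0.437). The number of falls ran from 5 to 12 when single libraries were left out, with 11 without CCl4 replicate 1, 12 without CCl4 replicate 5 and 9 without oil replicate 5, and it was 0 with library totals only, 2 with scaling to the hepatocyte list and 17 with limma-voom. Adjusted for the length slope, the median was -0.09.

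Of 13 tested other Wnt targets, known from liver or other tissues, 3 fell, 5 rose and 5 did not pass, with a median log2 fold change of 0.20. This median rested on single libraries: it was 0.08 without CCl4 replicate 4, 0.13 without CCl4 replicate 5, 0.11 without oil replicate 1, -0.01 without oil replicate 5 and 0.51 without oil replicate 6. For this list and the marker lists below, the shares over all tested genes were 18.4% for falls and 20.6% for rises. Sp5, a transcription factor that many Wnt-responsive tissues induce, fell to 0.261 ± 0.106 CPM in CCl4 livers, against 1.28 ± 0.204 CPM in oil livers (4.90-fold, edgeR adjusted p = 3.33e-05). Cldn2, a tight junction protein of pericentral hepatocytes, fell 1.76-fold, and Fzd7 fell 1.44-fold, though Fzd7 did not pass when any of CCl4 replicates 2, 4 and 6 or of oil replicates 1 and 5 was left out, nor with upper-quartile scaling, library totals only, scaling to the hepatocyte list, or adjustment for the length slope. Ccnd1, cyclin D1, rose to 190 ± 36.2 CPM in CCl4 livers, against 20.5 ± 7.61 CPM in oil livers (9.24-fold, edgeR adjusted p = 3.69e-07). Nkd1 and Notum, inhibitors of the pathway, had 4.08 and 21.5 CPM in CCl4 livers and 5.16 and 25.5 CPM in oil livers, and did not pass (edgeR adjusted p = 0.118 and 0.263). The adhesion receptor Cd44 rose 3.00-fold and the transcription factor Tcf7 rose 1.69-fold. Dividing cells, macrophages and lymphocytes also express genes of this list. The 10 cell division genes all rose, and their summed level was 45.7 to 108 CPM in CCl4 livers and 9.94 to 16.9 CPM in oil livers. Of 12 macrophage markers 9 rose, with summed levels of 822 to 1739 CPM in CCl4 livers and 345 to 534 CPM in oil livers. Of 11 lymphocyte markers 5 rose and 1 fell, with summed levels of 8.91 to 19.0 CPM in CCl4 livers and 8.29 to 10.6 CPM in oil livers. All 12 stellate cell and fibroblast markers rose, with 916 to 1256 CPM in CCl4 livers and 243 to 394 CPM in oil livers. Of 8 tested cholangiocyte markers 4 rose, with 159 to 215 CPM in CCl4 livers and 50.9 to 83.8 CPM in oil livers. Of 11 endothelial markers 2 fell and 3 rose, with 249.5 to 284 CPM in CCl4 livers and 204.5 to 313 CPM in oil livers. The 2 endothelial falls were 0 without CCl4 replicate 2, 1 when CCl4 replicate 4 or 6 or oil replicate 2, 3, 4 or 6 was left out, and 0 with library totals only, scaling to the hepatocyte list or adjustment for the length slope. The part of these cells in the changes was not tested.

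A further list held 19 tested enzymes and carriers, taken as partners of Glul, Oat, Slc1a2 and Rhbg in glutamine, ornithine and ammonia handling. Of these 11 fell, 3 rose and 5 did not pass, with a median log2 fold change of -0.54. The falls were smaller than those of the 4 genes in size, from 1.45-fold to 3.64-fold. Of all tested genes 18.4% fell and 20.6% rose. Prodh, proline dehydrogenase, fell to 51.0 ± 11.03 CPM in CCl4 livers, against 186 ± 33.8 CPM in oil livers (edgeR adjusted p = 2.34e-06). Got1, the cytosolic aspartate aminotransferase, fell 2.32-fold, and Car5a, a mitochondrial carbonic anhydrase, fell 2.01-fold. The 3 that rose were Aldh18a1 (5.04-fold) and Pycr1 (3.74-fold), which make proline from glutamate, and Slc1a4, a neutral amino acid transporter (3.78-fold).

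Of 18 other genes of pericentral hepatocytes 12 fell, 1 rose and 5 did not pass, with a median log2 fold change of -0.77. Cyp2e1, the enzyme that activates CCl4, fell to 507 ± 185 CPM in CCl4 livers, against 6194 ± 689 CPM in oil livers (12.2-fold), Cyp2a5 fell 6.60-fold and the dicarboxylate transporter Slc13a3 fell 4.27-fold, whereas the glutathione transferase Gstm3 rose 6.76-fold. The largest fall of this list was that of Cyp8b1, named here after its values were seen. Cyp8b1 had 20.3 ± 12.1 CPM in CCl4 livers and 539 ± 182 CPM in oil livers (26.6-fold, edgeR adjusted p = 6.52e-06). Its fold change was larger than those of Glul and Oat. Of 16 genes of periportal hepatocytes 8 fell, 4 rose and 4 did not pass, with a median of -0.57. For both lists, the shares over all tested genes were 18.4% for falls and 20.6% for rises. The glucose enzyme G6pc fell 8.10-fold and Apoc2 rose 3.27-fold.

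**Figure D4:**
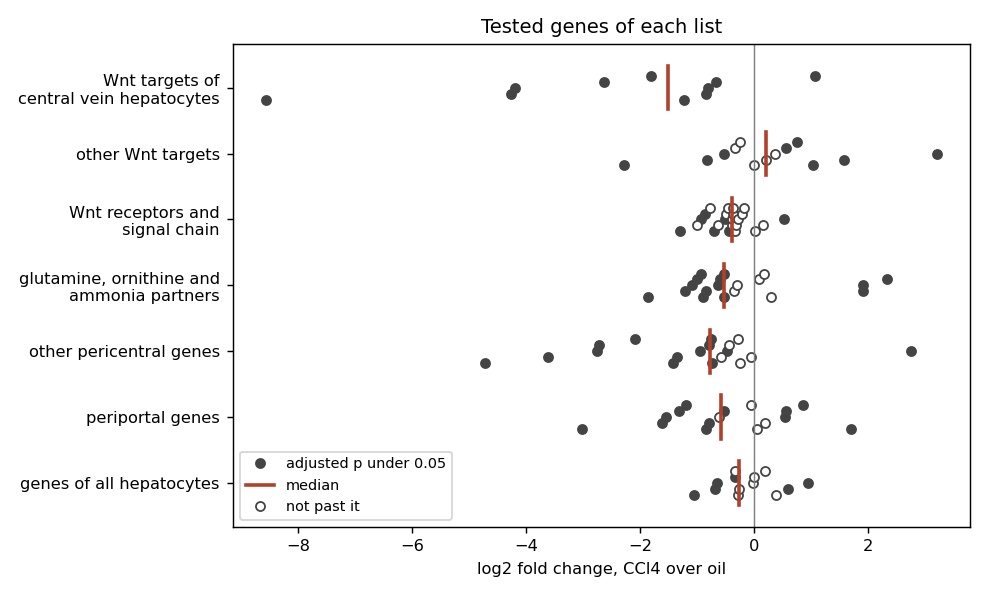
Log2 fold change of CCl4 over oil for the tested genes of 7 lists, filled where the adjusted p was under 0.05, with a bar at the median. The medians run from -1.52 in the Wnt targets of central vein hepatocytes to 0.20 in the other Wnt targets.

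The 5 genes whose pattern over the 12 libraries was most like that of Glul, among 11698 genes whose log2 CPM averaged 1 or more, were Tenm3, Nxpe2, Npr2, Cyp2e1 and Cyp2c37. Likeness was the root mean square difference in log2 CPM after each gene's own mean was removed. It was 0.27 for Tenm3, 0.40 for Nxpe2, 0.41 for Npr2 and Cyp2e1, and 0.44 for Cyp2c37, against 0.53 for Oat, 0.88 for Rhbg and 2.15 for Slc1a2. The measure takes in the difference between the groups as well as the spread between livers. A fold change near that of Glul therefore counts as likeness, and the measure does not show that genes varied together between livers of a group. Tenm3, a teneurin of the cell surface, had 0.851 ± 0.234 CPM in CCl4 livers and 15.9 ± 3.53 CPM in oil livers (SD, n = 6 each). Npr2, a natriuretic peptide receptor, had 4.67 ± 1.75 CPM in CCl4 livers and 55.5 ± 11.4 CPM in oil livers.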

How the data were processed

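Read counts per gene were deposited by the authors as whole numbers without normalisation, for 12 livers. Per the labels' protocols libraries came from a stranded total RNA kit, and per the submitters' processing notes coordinates refer to GRCm38. How reads were aligned, assigned to genes and split by strand is not given in the sources used here. Overlapping genes may therefore share reads. All 12 sample files equalled the series table. Of 36528 IDs 31049 took names from RefSeq GRCm38.p6 and 78 from GENCODE M21, which also gave transcript lengths. Nothing in the labels pairs the livers, and replicate numbers follow accession order. P-values set the difference between the groups against the spread between these livers.

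Low counts were removed with filterByExpr, TMM gave the scaling factors, and the test was that of edgeR 4.0.16 in R 4.3.3 (robust quasi-likelihood F test, Benjamini-Hochberg adjustment over all 16032 tested genes). A prior count of 2 went into log2 CPM. Standard errors are the absolute log2 fold change over the square root of F. For ratios, all 924 arrangements of the livers were enumerated in an exact two-sided permutation test. limma 3.58.1 and DESeq2 1.42.0 served as alternatives. The genes and lists were chosen with earlier results of these data known. Named were the 10 genes, up to 3 called genes per direction of each list with the smallest p, the 5 genes most like Glul and annotated genes overlapping the 10. Ctnnb1, Alb, Bcl9l, Cyp8b1 and the split of CCl4 libraries by muscle transcripts were chosen after values were seen. Nkd1 and Notum were also named outside this rule. The fit was tested on simulated counts.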

Additional observations from a re-analysis of the deposited data

How the results depend on the processing

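Alternatives were 4 other scalings, DESeq2, limma-voom with quality weights, no filter, 50 counts in 6 libraries, the length slope as a covariate, a test for changes beyond 1.5-fold, and the omission of single libraries. Leaving out both CCl4 libraries with muscle transcripts was added after the data were seen. Of 230 fold changes of the 10 genes 210 kept their direction and side of the threshold, and 20 kept their direction without passing, of which 14 were of Axin2, 4 of Znrf3 and 2 of Rnf43. The genes called in all were 6256, and 2381 in the test against 1.5-fold, where 6 of the 10 genes were called as falls and Lect2 as a rise. In that test 4.77% of all tested genes were called as falls and 10.1% as rises. Leaving out 1 library gave 5238 to 7514 called genes, and 8 or 9 falls and 1 rise among the 10. Falls were then 14.6% to 22.8% of all tested genes, and rises 17.7% to 25.0%. Axin2 did not pass with upper-quartile scaling (adjusted p = 0.0911), scaling to the hepatocyte list (0.104), no filter (0.0569) or 50 counts in 6 libraries (0.0598). Znrf3 did not pass with scaling to the hepatocyte list (0.0823). Over all genes 1302 falls were called with library totals only and 2951 with TMM. The cause of these losses was not tested. No paired analysis was possible because the labels give the livers no shared replicate numbers. At 14 to 30 reads per CCl4 library the size of the fall of Slc1a2 rests on few reads.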
